A study of Mus musculus with 2 samples.

Results

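Respiratory chain and ATP synthase genes were examined by single-cell RNA sequencing (scRNA-seq) of mouse testes. The genes were taken by name alone. All symbols beginning with Nduf, Uqcr, Atp5 or Cox4 to Cox8 were used, without pseudogenes, and all symbols beginning with mt-. This gave 102 of the 32285 genes counted, 89 of them in the nuclear genome and 13 in the mitochondrial genome. The nuclear genes comprised 36 for subunits of complex I, 8 for complex I assembly factors, 8 for complex III, 20 for complex IV and 17 for complex V. The mt- genes comprised 7 for complex I, 1 for complex III, 3 for complex IV and 2 for complex V. 3 of the nuclear genes, *Ndufa1*, *Ndufb11* and *Cox7b*, lie on the X chromosome.

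The study asked how loss of BRCA1 affects germ cells, and 1 pair of male littermates was sequenced at postnatal day (PD) 7. The control library came from testes labelled control. The *Brca1* vKO library came from testes of a *Brca1* f/- mouse with the *Vasa-Cre* transgene. Cre is driven by a germ cell promoter, so the floxed allele is meant to be removed in germ cells, while the somatic cells of this mouse carry 1 deleted *Brca1* allele. The alleles of the control mouse are not given in the sources used here, and more cells were loaded for *Brca1* vKO than for control testes. With 1 library for each genotype there is no replicate, so genotype, animal and library cannot be told apart and no p-value is given. All paired values below are for the control library first and the *Brca1* vKO library second.

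The respiratory chain passes electrons from NADH and succinate through complexes I to IV to oxygen and pumps protons across the inner mitochondrial membrane, and complex V, the ATP synthase, uses that gradient to make ATP. Complexes I, III, IV and V are built from products of both genomes. The mitochondrial genome encodes a few central subunits, among them the catalytic ones of complex IV, and its transcripts are cut from long precursors read from each strand. The nucleus encodes the remaining subunits and all assembly factors. Several complex IV subunits exist as isoforms from separate nuclear genes, some of which are known from testis, muscle or hypoxic tissue. Undifferentiated spermatogonia are the stem and progenitor cells of the male germ line, and differentiating spermatogonia carry KIT and respond to retinoic acid through STRA8.

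The libraries held 5812 and 9456 barcodes with 120568700 and 165062097 UMIs. Barcodes were retained from 750 genes upward where mt- UMIs made up no more than 10%, leaving 5077 and 8712 cells with a median of 16917 and 12970.5 UMIs. 21 barcodes occurred in both libraries, 16 of them among retained cells. Clusters were named from marker genes after all 102 genes had been left out of the clustering. Gfra1-type germ cells, with *Ddx4* at 446 and 395 CPM and *Gfra1* at 254 and 367 CPM, numbered 395 and 183. Kit-type germ cells, with *Kit* at 168 and 105 CPM and *Stra8* at 413 and 239 CPM, numbered 173 and 11, so every Kit-type value of the *Brca1* vKO library rests on 11 cells. Sertoli cells numbered 2041 and 4157, stromal cells 852 and 1983, peritubular myoid cells 559 and 1415, Leydig cells 47 and 112 and pericytes 47 and 68. Median UMIs per cell were 43695 and 35803 in Gfra1-type and 50133 and 40995 in Kit-type germ cells, 18630 and 15614 in Sertoli, 16205 and 12152 in stromal, 13538 and 9840 in myoid and 22667 and 19279.5 in Leydig cells. *Brca1* itself was at 69.1 and 42.7 CPM in the Gfra1-type germ cells, where 3′ counting cannot show which exons a transcript holds. A germ cell cluster of 339 and 51 barcodes with few UMIs, and 156 and 30 cells of germ sub-clusters led by somatic genes, were kept apart from both germ cell types.

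Counts of each gene were summed over the cells of a class in each library and given per 1000000 UMIs of that sum (CPM). The nuclear part is the summed UMIs of the 89 nuclear genes as a percent of all UMIs of the class, and the mitochondrial part is the same for the 13 mt- genes. Intervals are exact, at 95%, and cover counting error only. CPM are shares of a library's RNA, so fewer transcripts per cell and more RNA of other genes cannot be told apart.

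Among the classes given here, which had their usual depth, the nuclear part was largest in Leydig and Kit-type germ cells. Pericytes and Gfra1-type germ cells followed, and it was smallest in stromal and myoid cells. It was 2.5% and 2.33% in Leydig cells, 2.40% and 2.29% in Kit-type germ cells, 2.20% and 2.22% in Gfra1-type germ cells, 1.93% and 1.87% in Sertoli cells, 1.64% and 1.55% in myoid cells and 1.58% and 1.57% in stromal cells. Pericytes, at 2.21% and 2.24%, were slightly above the Gfra1-type germ cells. The order of Leydig, germ, Sertoli and then stromal and myoid cells was the same in both libraries, with Leydig above Kit-type cells by less than the middle spread of single cells. In the control library the middle quartiles of Leydig cells spanned 2.08% to 2.94% and that of Kit-type cells 2.11% to 2.86%. With a limit of 5% mt- UMIs, Gfra1-type germ cells, at 2.25% and 2.16%, were above Leydig cells, at 2.09% and 2.14%. With each cell weighted equally, Kit-type germ cells of *Brca1* vKO, at 2.36%, were above Leydig cells, at 2.34%. Myoid and stromal cells changed places between the libraries, at 1.55% and 1.57% in *Brca1* vKO.

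The mitochondrial part spread more widely between classes than the nuclear part. It was 5.73% and 6.01% in Gfra1-type germ cells, 5.60% and 6.30% in Kit-type germ cells, 5.33% and 4.53% in Leydig cells, 4.98% and 4.69% in Sertoli cells, 3.59% and 3.07% in pericytes, 2.89% and 2.70% in myoid cells and 2.84% and 2.69% in stromal cells. With the limit in place germ cells were highest and stromal and myoid cells lowest of these classes in both libraries, and the 27 and 36 endothelial cells were lower by a small margin, at 2.83% and 2.65%. The limit of 10% was set on this same quantity, so it caps the value of each cell. Without the limit the mitochondrial part was 5.88% and 6.19% in Gfra1-type germ cells, 5.24% and 4.78% in Sertoli cells, 5.89% and 5.18% in Leydig cells and 2.86% and 2.69% in stromal cells. In the control library Leydig and Gfra1-type germ cells were then level, and stromal and myoid cells (2.90% and 2.71%) were the lowest of these classes in both.

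Set against Sertoli cells of the same library, the nuclear part of Gfra1-type germ cells was 1.14 and 1.19 times as large and the mitochondrial part 1.15 and 1.28 times. Kit-type germ cells were at 1.24 and 1.23 times for the nuclear and 1.13 and 1.34 times for the mitochondrial part. Both parts were thus higher in both germ cell types than in Sertoli cells, in both libraries. Stromal cells were at 0.818 and 0.837 times for the nuclear but 0.570 and 0.573 times for the mitochondrial part, and myoid cells at 0.849 and 0.829 and 0.580 and 0.576 times. In Leydig cells the nuclear part was 1.29 and 1.25 times that of Sertoli cells, while the mitochondrial part was 1.07 and 0.966 times. That mitochondrial ratio has no settled side of 1. In control it was 0.881 with a limit of 5% mt- UMIs and 0.964 with each cell weighted equally, and in *Brca1* vKO it was 1.08 without a limit and 1.02 without the correction for the library. The mt- UMIs per nuclear UMI differed between classes, with 2.61 and 2.71 in Gfra1-type germ cells, 2.34 and 2.75 in Kit-type germ cells, 2.57 and 2.51 in Sertoli cells, 2.13 and 1.94 in Leydig cells, 1.79 and 1.72 in stromal cells, 1.76 and 1.74 in myoid cells and 1.62 and 1.37 in pericytes. Germ and Sertoli cells were above all interstitial classes in both libraries. Within the germ line, Kit-type cells were at 1.09 and 1.03 times the Gfra1-type cells for the nuclear part and 0.978 and 1.05 times for the mitochondrial part. That the mitochondrial ratio lay on different sides of 1 in these libraries leaves no shared direction for it, and in *Brca1* vKO it was 0.996 with each cell weighted equally and 0.944 with germ cells taken by marker UMIs.

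**Figure D1:**
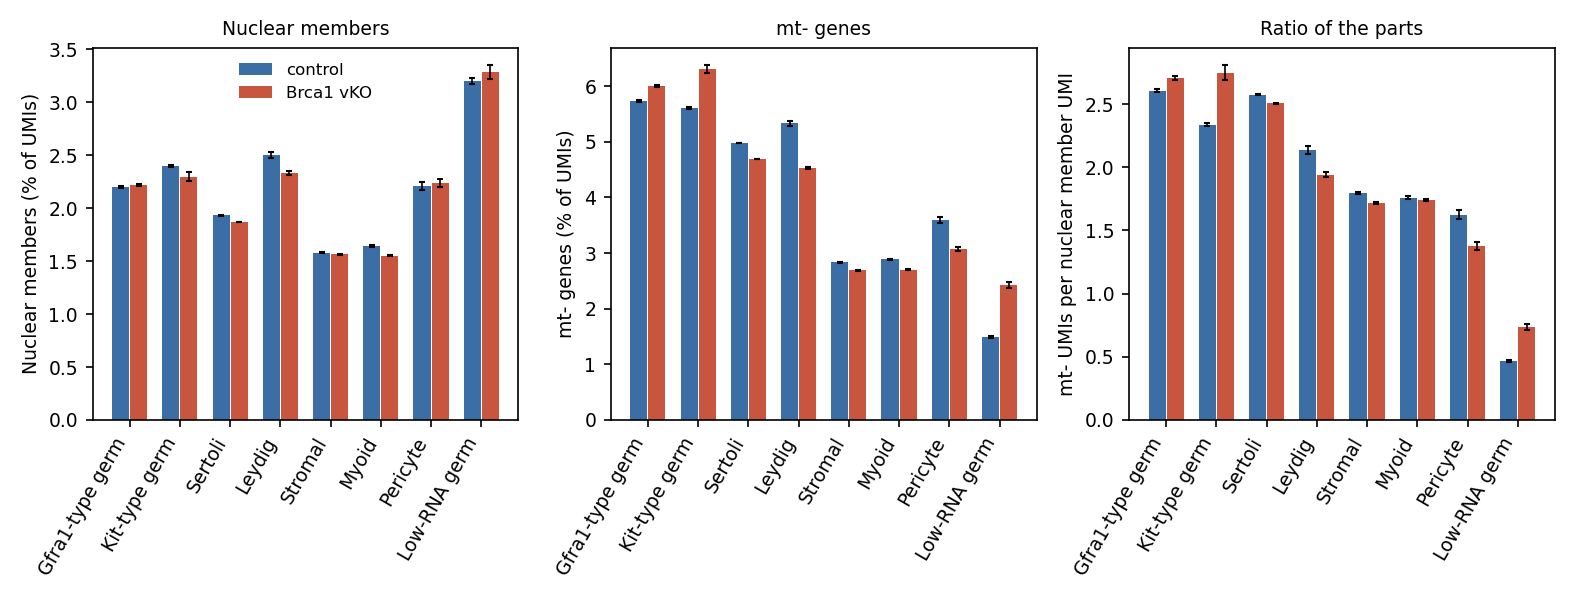
Nuclear part (percent of UMIs), mitochondrial part (percent of UMIs) and mt- UMIs per nuclear UMI in each cell class of the control and Brca1 vKO libraries, as bars with exact 95% intervals for counting error. The germ cell barcodes with few UMIs (Low-RNA germ) have taller nuclear and shorter mitochondrial bars than Gfra1-type and Kit-type germ cells. Germ cells of usual depth have the largest mitochondrial parts, and stromal cells, at 2.84% and 2.69%, hold less than Sertoli cells.

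By complex, the nuclear share of complex I subunits was 0.718% and 0.697% in Gfra1-type germ cells and 0.654% and 0.631% in Sertoli cells, and that of complex V was 0.616% and 0.635% against 0.598% and 0.580%. Complex IV showed a wider gap, with 0.649% and 0.669% in Gfra1-type germ cells and 0.487% and 0.476% in Sertoli cells. The complex I assembly factors, which join the subunits but stay out of the finished enzyme, took 0.0453% and 0.0408% in Gfra1-type germ cells, 0.0512% and 0.0426% in Kit-type germ cells and 0.0240% and 0.0225% in Sertoli cells. Their share was higher in both germ cell types in both libraries, whereas complex III, with 0.170% and 0.177% in Gfra1-type germ cells and 0.170% and 0.161% in Sertoli cells, was nearly level. In Leydig cells complex III stood at 0.246% and 0.215%.

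The nuclear genes with the most UMIs under each symbol are given for Gfra1-type germ cells against Sertoli cells. Among Nduf genes these were *Ndufa4* at 454 and 539 CPM against 501 and 668 CPM, *Ndufc2* at 308 and 273 CPM against 363 and 365 CPM and *Ndufb9* at 659 and 622 CPM against 295 and 281 CPM, of which *Ndufa4* is counted with complex IV. Among Uqcr genes of complex III they were *Uqcrh* at 476 and 481 CPM against 448 and 419.7 CPM, *Uqcrb* at 292 and 267 CPM against 243 and 213 CPM and *Uqcr10* at 170.3 and 191 CPM against 230.4 and 234 CPM. Among Cox genes of complex IV they were *Cox4i1* at 1088 and 1059 CPM against 570.3 and 532 CPM, *Cox6c* at 547 and 592 CPM against 653 and 632 CPM and *Cox7c* at 1052 and 992 CPM against 543 and 543 CPM. Those of complex V were *Atp5g2* at 418 and 479.6 CPM against 576 and 551 CPM, *Atp5c1* at 308 and 360.3 CPM against 624 and 615 CPM and *Atp5b* at 472 and 470.4 CPM against 475 and 454 CPM. Counts were taken near the 3′ end of transcripts and depend on how well that end maps, so levels are compared for 1 gene between classes and not between genes.

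Single genes were compared between Gfra1-type germ and Sertoli cells by the ratio of CPM within each library. A gene was called higher or lower when the log2 ratio of CPM + 10 passed 1.5-fold in both libraries, among genes with at least 50 UMIs in the sums. Of all 14806 genes tested, 20.6% were called higher and 18.4% lower. Of the 89 nuclear genes 86 were tested, and 17 were called higher and 8 lower. The median log2 ratio of the tested nuclear genes was 0.14 and 0.15, beside 0.05 and 0.04 over all genes. The 13 mt- genes gave no call, with a median of 0.16 and 0.34. In both libraries 9 of them were higher and 2 lower, beside 48.2% and 42.1% of all genes.

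Among the 17 genes called higher, *Cox7b2* and *Cox8c*, isoforms of small complex IV subunits known from testis, were almost confined to germ cells. *Cox7b2* (ENSMUSG00000049387, chr5:71442824-71548205, minus strand) was at 190.4 and 159 CPM in Gfra1-type and 129 and 119.6 CPM in Kit-type germ cells, against 2.39 and 1.34 CPM in Sertoli, 2.10 and 1.25 CPM in stromal, 2.32 and 0.608 CPM in myoid and 5.51 and 1.61 CPM in Leydig cells. *Cox8c* (ENSMUSG00000043319, chr12:102899316-102900526, plus strand) was at 22.7 and 43.0 CPM in Gfra1-type germ cells and at 0.349 and 0.148 CPM in Sertoli cells. Neither library had a UMI of *Cox7b2* or *Cox8c* in pericytes. *Ndufv1*, the core subunit of complex I that binds NADH and FMN, was at 266 and 280.0 CPM in Gfra1-type germ cells and 70.6 and 70.8 CPM in Sertoli cells, a ratio of 3.77 and 3.96. The accessory subunit *Ndufa9* was at 149 and 146 CPM against 53.1 and 52.1 CPM. These complex I genes stood together with the core iron-sulfur subunits *Ndufs7*, with ratios of 1.79 and 1.70, and *Ndufs8*, with 1.91 and 2.31.

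Of the 8 complex I assembly factors 3 were called higher, beside 20.6% of all genes, and the other factors were not called. With so few genes the count is not read as a departure from that share. The 3 were *Ndufaf2* with ratios of 2.84 and 2.58, *Ndufaf4* with 2.28 and 2.33 and *Ndufaf8* with 2.31 and 2.32. The membrane arm subunit *Ndufb9* was at 659 and 622 CPM in Gfra1-type germ cells and 295 and 281 CPM in Sertoli cells, and *Ndufa11* at 439 and 327 CPM against 185 and 172 CPM. The widespread complex IV subunits *Cox4i1*, at 1088 and 1059 CPM against 570.3 and 532 CPM, and *Cox7c*, at 1052 and 992 CPM against 543 and 543 CPM, were also higher in germ cells. *Cox6a1*, the widespread isoform of its subunit, had ratios of 1.58 and 1.92. From the other complexes came *Uqcr11* of complex III, with ratios of 1.61 and 1.73, and *Atp5mpl*, a small membrane subunit of ATP synthase, with 2.18 and 2.30. The genes called higher thus came from complexes I, III, IV and V.

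The 8 genes called lower in Gfra1-type germ cells than in Sertoli cells were mostly accessory subunits of complex I. *Atp5c1*, the gamma subunit that turns in the central stalk of ATP synthase, was at 308 and 360.3 CPM in Gfra1-type germ cells and 624 and 615 CPM in Sertoli cells. X-linked *Ndufa1* was at 42.3 and 62.2 CPM against 110.0 and 111 CPM. *Ndufb7* had ratios of 0.419 and 0.569, *Ndufb4* of 0.515 and 0.589, *Ndufa12* of 0.543 and 0.587, *Ndufb5* of 0.610 and 0.617 and *Ndufc1* of 0.631 and 0.591. *Cox7a1*, the isoform of muscle, was low in every class and reached 23.7 and 22.4 CPM in Sertoli cells and 11.0 and 7.55 CPM in Gfra1-type germ cells. Subunits of one complex therefore did not share a direction, since complex I held *Ndufv1* and *Ndufa9* among the genes called higher and *Ndufa1* and *Ndufb7* among those called lower.

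**Figure D2:**
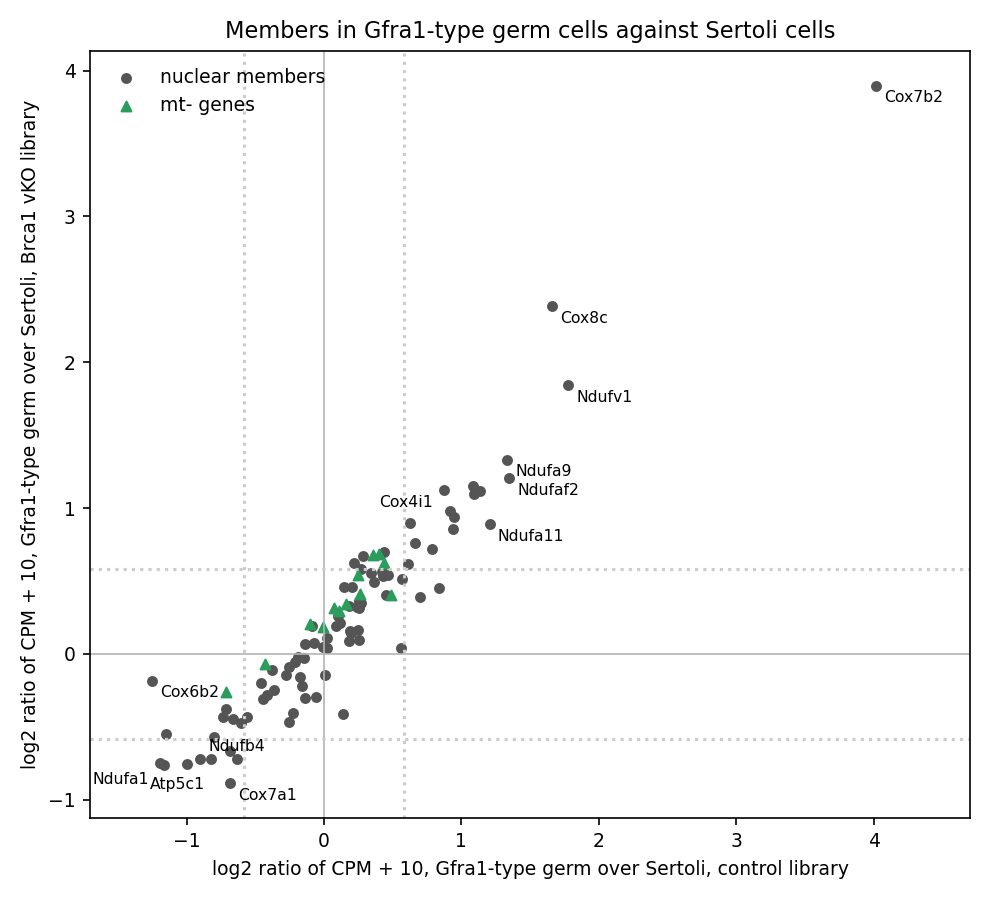
Each member's log2 ratio of CPM + 10 between Gfra1-type germ and Sertoli cells in the control library (horizontal) and in the Brca1 vKO library (vertical), with nuclear members as circles and mt- genes as triangles. Dotted lines mark the 1.5-fold limit, Cox7b2 lies far to the upper right, Cox8c, Ndufv1, Ndufa9 and Ndufaf2 follow, and Ndufa1, Atp5c1 and Cox7a1 lie to the lower left in both libraries.

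In Kit-type germ cells against Sertoli cells, 18 of 85 tested nuclear genes were called higher and 6 lower, beside 19.2% and 19% of all 13999 genes. *Cox7b2* had the largest ratio of the tested nuclear genes among the 102, at 53.9 and 89.4. *Ndufaf8* was at 207 and 203 CPM in Kit-type germ cells and 62.1 and 60.9 CPM in Sertoli cells. *Uqcr11* was at 423 and 426 CPM against 194 and 189 CPM, and *Cox5b*, a nuclear subunit at the matrix side of complex IV, at 489.9 and 509 CPM against 297 and 258 CPM. Lower calls were the assembly factor *Ndufaf3*, at 6.17 and 6.08 CPM against 26.9 and 25.3 CPM, and *Ndufb4*, *Ndufb7*, *Cox7a1*, *Atp5c1* and X-linked *Cox7b*. Between the germ cell types 1 of 85 nuclear genes was called, beside 1.85% of 10002 genes higher and 3.09% lower in Kit-type cells. It was *Cox7b*, at 94.3 and 103 CPM in Kit-type and 174 and 179 CPM in Gfra1-type germ cells. *Ndufa1* stood the other way, at 92.2 and 91.2 CPM against 42.3 and 62.2 CPM, and passed the limit in the control library alone.

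Promoter sequence was read for the nuclear genes because members of one complex differed in direction between germ and Sertoli cells. RefSeq (GRCm38.p6) gave a window from 250 bases before to 50 bases after a start site for 72 of the 89 nuclear genes. NRF1 and GABP are transcription factors known from promoters of respiratory chain genes. The NRF1 core searched was GCGCATGC on one strand and GCATGCGC on the other, and the GABP core was CCGGAAG and CTTCCGG. Neither core is contained in the other, and a gene with any match was counted once. The NRF1 core was in the windows of 11 of the 72 genes (15.3%), beside 3.05% of all 27025 genes with a window. The GABP core was in 17 (23.6%), beside 9.93%. Both cores hold CpG, and windows of the nuclear genes held a median of 19 CpG beside 7 in windows of other genes, so the share over all genes is not matched for base composition. Of the 13 genes with a window that were called higher in Gfra1-type germ than in Sertoli cells, 4 held the NRF1 core and 4 the GABP core, of the 8 called lower, 0 and 1 did, and of the 51 that were not called, 7 and 12 did. These are matches of letters in a window and not sites of binding. The windows of 5 genes are printed 5′ to 3′ on the gene's strand, with a match of each core in capitals, and a second match that overlaps it on the other strand left in lower case. *Cox7b2* and *Cox6b2* are isoforms that varied between classes and hold neither core, *Cox6a1* and *Uqcr11* were higher in germ cells and hold both, and *Ndufa11* was higher in germ cells and holds the NRF1 core.
Cox7b2, chr5:71548156-71548455, minus strand: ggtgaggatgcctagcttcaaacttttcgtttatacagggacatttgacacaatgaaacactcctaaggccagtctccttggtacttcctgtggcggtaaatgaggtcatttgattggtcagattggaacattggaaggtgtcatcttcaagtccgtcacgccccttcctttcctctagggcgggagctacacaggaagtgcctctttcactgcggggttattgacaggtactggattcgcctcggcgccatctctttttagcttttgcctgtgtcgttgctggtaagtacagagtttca
Cox6b2, chr7:4753045-4753344, minus strand: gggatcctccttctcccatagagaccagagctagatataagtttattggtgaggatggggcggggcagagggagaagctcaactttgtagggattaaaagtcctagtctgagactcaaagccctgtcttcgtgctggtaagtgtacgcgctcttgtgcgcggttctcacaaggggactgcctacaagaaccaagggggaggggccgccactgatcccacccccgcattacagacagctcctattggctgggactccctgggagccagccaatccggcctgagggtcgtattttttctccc
Cox6a1, chr5:115348909-115349208, minus strand: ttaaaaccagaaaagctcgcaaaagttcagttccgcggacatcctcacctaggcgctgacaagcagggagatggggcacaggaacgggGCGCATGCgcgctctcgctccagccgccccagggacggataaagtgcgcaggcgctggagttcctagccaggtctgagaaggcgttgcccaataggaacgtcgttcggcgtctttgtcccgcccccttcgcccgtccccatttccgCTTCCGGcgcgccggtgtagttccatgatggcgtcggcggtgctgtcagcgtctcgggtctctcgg
Uqcr11, chr10:80406772-80407071, minus strand: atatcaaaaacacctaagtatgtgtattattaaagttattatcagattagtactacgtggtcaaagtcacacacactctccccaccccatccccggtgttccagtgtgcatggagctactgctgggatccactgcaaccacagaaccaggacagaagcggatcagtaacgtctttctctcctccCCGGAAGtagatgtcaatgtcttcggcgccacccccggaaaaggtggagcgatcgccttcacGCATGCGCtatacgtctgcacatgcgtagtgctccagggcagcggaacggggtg
Ndufa11, chr17:56717512-56717811, plus strand: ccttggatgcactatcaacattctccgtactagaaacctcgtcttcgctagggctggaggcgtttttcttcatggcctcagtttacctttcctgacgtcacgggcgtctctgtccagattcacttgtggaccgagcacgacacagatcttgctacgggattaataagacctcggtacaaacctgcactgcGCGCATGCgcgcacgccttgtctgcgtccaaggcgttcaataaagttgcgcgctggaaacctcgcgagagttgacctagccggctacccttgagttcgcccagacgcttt

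Most nuclear genes were lower in stromal and myoid cells than in Sertoli cells, as were most genes of all kinds. In stromal cells 0 of 87 tested nuclear genes were called higher and 12 lower, beside 13.1% and 18.6% of 14567 genes, and 67 of the 87 (77.0%) were lower in both libraries, beside 56.2% of all genes. In myoid cells 2 of 86 were called higher and 17 lower, beside 13.3% and 22.9% of 14193 genes, and 69 of the 86 (80.2%) were lower in both, beside 62.1% of all genes. The shares called lower were thus below those over all genes, while more of the nuclear genes lay below 0. The median over all genes was itself below 0 in these contrasts, at -0.10 and -0.10 in stromal and -0.19 and -0.19 in myoid cells. The medians of the nuclear genes were -0.27 and -0.20 in stromal and -0.25 and -0.30 in myoid cells. After centring on the median of all genes, the nuclear genes past the limit numbered 1 higher and 9 lower in stromal cells, and 5 higher and 7 lower in myoid cells. Over all genes, centring gave 15.5% higher and 15.7% lower in stromal and 16.7% and 15.9% in myoid cells.

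*Atp5c1* was low in both, at 270.1 and 267 CPM in stromal and 298 and 278 CPM in myoid cells. *Cox5a*, which lies beside *Cox5b* at the matrix side of complex IV, was at 164 and 159 CPM in stromal, 197 and 185 CPM in myoid and 379 and 376 CPM in Sertoli cells. *Ndufb7*, *Ndufs4*, *Ndufs6*, *Ndufb8*, *Ndufab1*, *Ndufc1*, *Uqcrq*, *Atp5j2* and *Atp5md* were called lower in both classes. *Cox7a1* went from 23.7 and 22.4 CPM in Sertoli cells to 2.38 and 2.11 CPM in stromal and 0.773 and 1.01 CPM in myoid cells. The genes called higher in myoid cells were *Cox6b2*, at 91.5 and 70.8 CPM, and *Cox7a2l*, which promotes pairing of complexes III and IV, at 444 and 431 CPM against 289.5 and 262 CPM in Sertoli cells. With shares taken over the UMIs that are not of mt- genes, with each cell weighted equally, or in cells with at least 10000 UMIs, none of the tested nuclear genes was called higher in myoid cells, where 13.2% to 13.5% of all genes were.

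All 13 mt- genes were lower in stromal and in myoid cells than in Sertoli cells in both libraries, and 8 of the 13 were called lower in each. Over all genes 18.6% were called lower in stromal and 22.9% in myoid cells, and 56.2% and 62.1% lay below 0 in both libraries. *mt-Co1*, the subunit that holds the oxygen-reducing centre of complex IV, was at 8193 and 8031 CPM in Sertoli, 4547 and 4554 CPM in stromal and 3714 and 3772 CPM in myoid cells. *mt-Nd2* of complex I was at 1841 and 1376 CPM, 924 and 689.9 CPM and 913 and 677 CPM in the same order. The genes that stayed within the limit in stromal cells were *mt-Atp8*, *mt-Nd3*, *mt-Nd4l*, *mt-Nd5* and *mt-Nd6*. In Leydig cells no mt- gene passed the limit.

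Leydig cells make testosterone, and the first step of that synthesis takes place at the inner mitochondrial membrane. The nuclear genes were higher there than in Sertoli cells, with 16 of 85 tested called higher and 1 lower, beside 9.78% and 16.6% of 13604 genes. In both libraries 66 of the 85 (77.6%) were higher, beside 29.6% of all genes. The median over all genes was -0.15 and -0.13 and that of the nuclear genes 0.27 and 0.25, and after centring on the former 25 were called higher and 0 lower, beside 12.2% and 12.7% of all genes. *Cox6a1* was at 338 and 283 CPM in Leydig cells and 154 and 139 CPM in Sertoli cells. *Atp5d*, of the central stalk of ATP synthase, was at 513 and 489 CPM against 253 and 241 CPM, and *Ndufs3*, a core subunit of complex I, at 263 and 271 CPM against 128 and 129 CPM. X-linked *Ndufb11* was at 444 and 399.9 CPM against 205 and 199.8 CPM. The catalytic beta subunit *Atp5b* was at 798 and 757 CPM against 475 and 454 CPM, while *Atp5c1* of the same enzyme, at 380.4 and 319 CPM, was the gene called lower. With a limit of 5% mt- UMIs instead of 10%, 7 of 85 nuclear genes (8.24%) were called higher and 3 lower, beside 10.1% and 19.9% of all genes. With each cell weighted equally 10 were called higher, beside 9.46% of all genes, and without clusters led by cell cycle genes 11, beside 10.1%. With 2-fold as the limit 0 of 85 were higher, beside 5.75% of all genes.

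Isoforms of complex IV subunits differed between classes by large factors. *Cox4i2*, the isoform of its subunit known from lung and from hypoxia, was at 715 and 467 CPM in pericytes and at most 2.97 CPM in germ, Sertoli, stromal, myoid and Leydig cells. *Ndufa4l2*, a hypoxia-responsive relative of the complex IV subunit *Ndufa4*, was at 1003 and 643 CPM in pericytes, beside 4.55 and 5.46 CPM in stromal and 0.0919 and 0.0984 CPM in Sertoli cells. Both were among the 10 leading genes of the pericyte cluster, which rests on 47 and 68 cells. Their widespread partners showed no such gap. *Ndufa4* was at 240.2 and 324 CPM in pericytes against 385 and 402 CPM in stromal cells, and *Cox4i1* at 837 and 808 CPM against 654 and 625 CPM. In endothelial cells, of which there were 27 and 36, *Ndufa4l2* was at 46.4 and 143 CPM and the pericyte markers summed to 392 and 627 CPM.

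*Cox6b2*, known as a testis isoform beside the widespread *Cox6b1*, was lower in germ cells than in Sertoli, stromal, myoid and Leydig cells of the control library. It was at 14.7 and 37.2 CPM in Gfra1-type germ cells, 48.9 and 43.6 CPM in Sertoli cells, 52.6 and 44.7 CPM in stromal cells and 91.5 and 70.8 CPM in myoid cells. *Cox6b1* was at 472 and 452 CPM in Gfra1-type germ cells and 347 and 308 CPM in Sertoli cells. *Cox7b2* stood beside its X-linked partner *Cox7b*, which was at 174 and 179 CPM in Gfra1-type, 94.3 and 103 CPM in Kit-type, 194 and 183 CPM in Sertoli and 303 and 316 CPM in Leydig cells. Transcripts of *Cox7b2* were in 391 of 395 and 178 of 183 Gfra1-type cells but in 102 of 2041 and 117 of 4157 Sertoli cells, at the median depths given above. After thinning to 2000 UMIs a cell the shares were 31.8% and 29.4% in Gfra1-type and 0.545% and 0.265% in Sertoli cells. *Cox6a2*, the isoform of heart and skeletal muscle, was at 5.75 and 4.69 CPM in Sertoli cells, 0.383 and 0.581 CPM in Gfra1-type germ, 0.0700 and 0.195 CPM in stromal and 0.129 and 0.135 CPM in myoid cells. In control Leydig cells it was at 1.84 CPM (95% interval 0.223 to 6.64), on 2 UMIs. *Cox8b*, another muscle isoform, had 4 UMIs over the germ, Sertoli, stromal, myoid and Leydig sums of both libraries together, too few to compare.

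**Figure D3:**
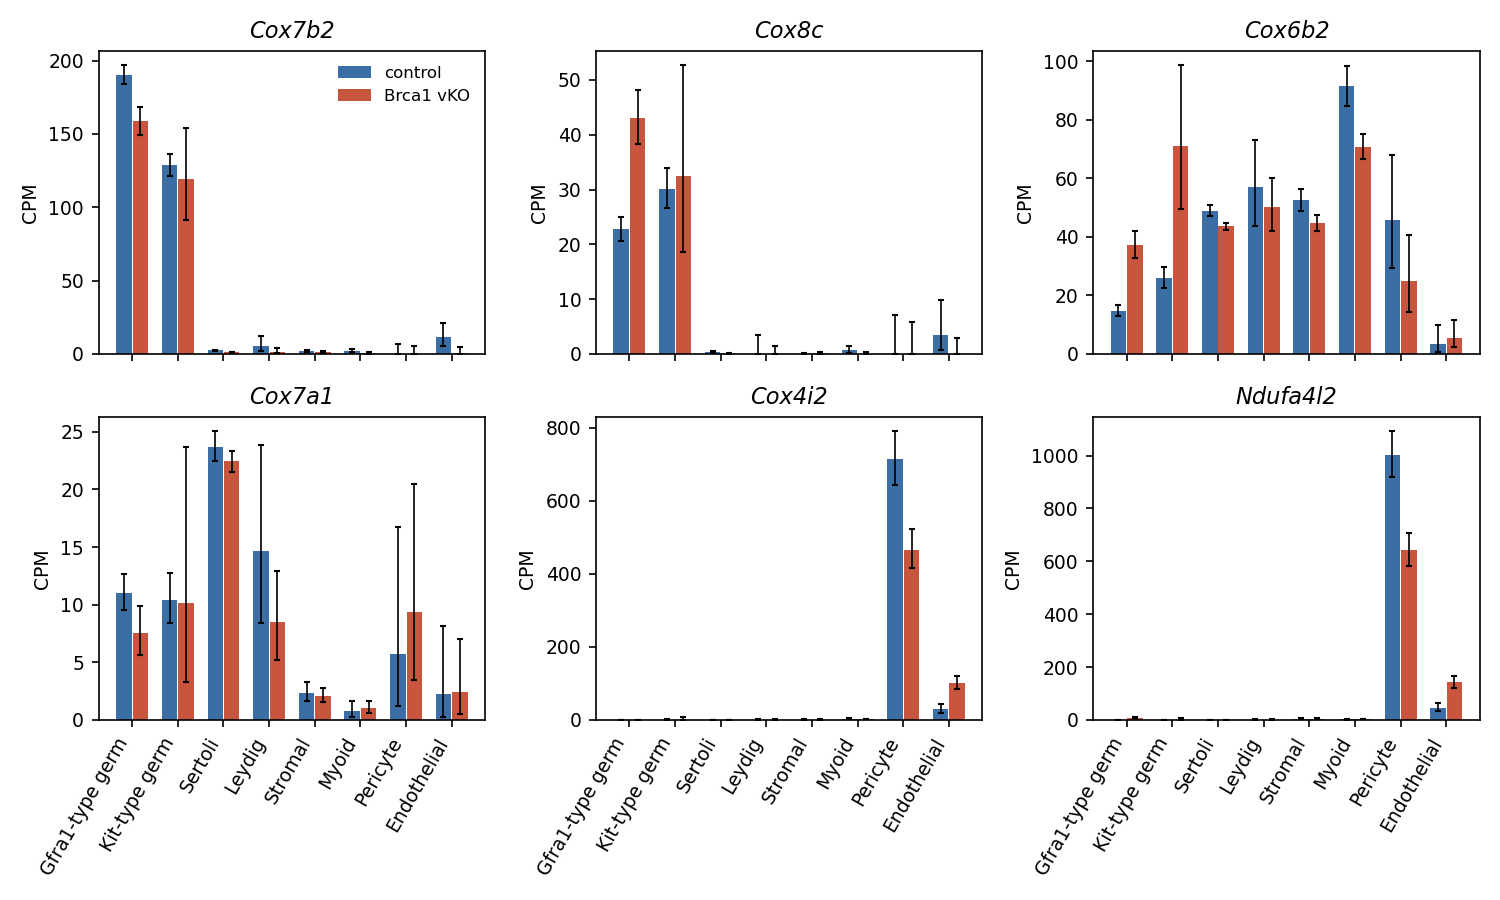
CPM of Cox7b2, Cox8c, Cox6b2, Cox7a1, Cox4i2 and Ndufa4l2 in each cell class of both libraries, as bars with exact 95% intervals for counting error. Cox7b2 and Cox8c stand out in the germ cells, Cox4i2 and Ndufa4l2 in the pericytes, and the Cox6b2 and Cox8c bars of Gfra1-type germ cells are taller in the Brca1 vKO library.

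The other genes of the pathway, a fixed list of 75 of which 74 were in the table, include complex II, the cytochromes c, carriers, assembly factors and regulators of mitochondrial gene expression. Against Sertoli cells, 16 of 73 tested were called higher and 11 lower in Gfra1-type germ cells, and 20 and 11 of 71 in Kit-type cells. Over all genes 20.6% were higher and 18.4% lower in Gfra1-type and 19.2% and 19% in Kit-type cells. The list was chosen with earlier results of these data known, so its counts are a description and are not read against these shares. Testis cytochrome c, *Cyct*, was at 118 and 142 CPM in Gfra1-type germ cells and 0.698 and 0.305 CPM in Sertoli cells, and the somatic *Cycs* at 155 and 143 CPM against 675 and 649 CPM. The germ cell ADP/ATP carrier *Slc25a31* was at 307 and 243 CPM against 2.66 and 0.925 CPM, while the somatic carrier *Slc25a4* was at 93.4 and 112 CPM against 257 and 291 CPM. For both pairs the germ cell form was high and the somatic form low in Gfra1-type germ cells. The outer membrane channel *Vdac1* was at 25.5 and 26.3 CPM against 203 and 209 CPM. *Cycs* was lower still in stromal cells, at 88.6 and 84.2 CPM, where 1 of 72 genes of the list was called higher and 12 lower, beside 13.1% and 18.6% of all genes. In myoid cells 3 of 70 were called higher and 19 lower, beside 13.3% and 22.9% of all genes, and the coactivator *Ppargc1a* was at 30.8 and 33.1 CPM there against 2.74 and 2.90 CPM in Sertoli cells. In Leydig cells 9 of 70 were called higher and 7 lower, beside 9.78% and 16.6% of all genes, with the phosphate carrier *Slc25a3* at 1116 and 998 CPM against 311 and 302 CPM.

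Between the libraries both parts lay close to each other in the classes of usual depth. In Gfra1-type germ cells the nuclear part was 1.01 (95% interval 1.0 to 1.02) times as large in *Brca1* vKO as in control, and the mitochondrial part 1.05 (95% interval 1.04 to 1.05) times. In Kit-type germ cells the ratios were 0.957 (95% interval 0.939 to 0.976) for the nuclear part and 1.12 (95% interval 1.11 to 1.14) for the mitochondrial part. Sertoli, stromal, myoid and Leydig cells lay below 1 in both parts, with nuclear ratios of 0.967 (95% interval 0.965 to 0.970) in Sertoli, 0.990 (95% interval 0.985 to 0.995) in stromal, 0.944 (95% interval 0.938 to 0.951) in myoid and 0.934 (95% interval 0.921 to 0.947) in Leydig cells. Their mitochondrial ratios were 0.942 (95% interval 0.940 to 0.943), 0.947 (95% interval 0.944 to 0.951), 0.934 (95% interval 0.929 to 0.939) and 0.849 (95% interval 0.840 to 0.857) in the same order. Pericytes were at 1.01 (95% interval 0.988 to 1.04) for the nuclear part, an interval that holds 1, and at 0.856 (95% interval 0.839 to 0.874) for the mitochondrial part. Germ cells thus had a larger share of mt- UMIs and these somatic classes a smaller one in the *Brca1* vKO library, but the intervals cover counting alone and there is no spread between animals to set these ratios against. With a limit of 5% mt- UMIs the nuclear ratio was 0.958 in Gfra1-type germ and 1.03 in Leydig cells and the mitochondrial ratio in Sertoli cells 1.01, each on the other side of 1. The nuclear ratio also crossed 1 in Gfra1-type germ cells with each cell weighted equally, at 0.988, and in Kit-type germ cells without the correction for the library, at 1.02, and with marker UMIs, at 1.01.

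Other values differed between the libraries in the same cells. In Gfra1-type germ cells the summed neutrophil markers were at 1.53 and 273 CPM, of which *S100a8* was at 0.110 and 93.5 CPM and *S100a9* at 0.164 and 90.3 CPM. The handling stress list was at 367 and 653 CPM, the retained nuclear RNAs at 2093 and 3498 CPM and the Sertoli markers at 45.4 and 95.4 CPM. The haemoglobin list, of red blood cell markers, holds *Hba-a1*, *Hba-a2*, *Hbb-bs* and *Hbb-bt* and also *Alas2*, which is not a haemoglobin gene. It was at 275 and 43.0 CPM. The germ cell markers differed too, with the Gfra1-type list at 465 and 779 CPM and the Kit-type list at 259 and 149 CPM, so the make-up of the class was not the same in both libraries. The part of these values in the differences was not tested.

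In the somatic classes the haemoglobin list was at 670.4 and 223 CPM in Sertoli, 1179 and 115 CPM in stromal, 2525 and 98.7 CPM in myoid and 203 and 66.0 CPM in Leydig cells, lower in *Brca1* vKO in each. The handling stress list was at 4430.1 and 5371 CPM, 12273 and 15104 CPM, 7879 and 9891 CPM and 10289.5 and 10659.9 CPM in the same order. Leydig cells, which had the largest difference in the mitochondrial part of these classes, held stromal markers at 629 and 1063 CPM, Sertoli markers at 1145 and 739.8 CPM and cell cycle genes at 289 and 482 CPM. In the pericyte cluster the myoid markers were at 5701 and 11238 CPM, the pericyte markers at 3396 and 2307 CPM, the Sertoli markers at 93.4 and 399 CPM, the haemoglobin list at 427 and 113 CPM and the handling stress list at 9279 and 13259 CPM, so its make-up differed between the libraries. The part of these values in the ratios was not tested.

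In Gfra1-type germ cells 3 of 86 tested nuclear genes were called higher in *Brca1* vKO and 2 lower, beside 3.45% and 3.16% of all 13265 genes. *Cox6b2* (ENSMUSG00000051811, chr7:4751792-4753094, minus strand) was at 14.7 CPM (95% interval 13 to 16.6) in control and 37.2 CPM (95% interval 32.8 to 42) in *Brca1* vKO, a ratio of 2.52 (95% interval 2.12 to 3.01). Its partner *Cox6b1* had a ratio of 0.958. In the somatic classes *Cox6b2* was lower in *Brca1* vKO, with ratios of 0.891 in Sertoli, 0.850 in stromal and 0.773 in myoid cells. *Cox8c* was at 22.7 and 43.0 CPM in Gfra1-type germ cells, a ratio of 1.89 (95% interval 1.62 to 2.20), whereas *Cox7b2* was at 190.4 and 159 CPM, with a ratio of 0.834 (95% interval 0.779 to 0.893). The testis isoforms of complex IV therefore did not share a direction between the libraries.

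*Ndufa4l2* was seen in 11 of 395 control and 47 of 183 *Brca1* vKO Gfra1-type germ cells, as 12 and 60 UMIs with at most 3 in a cell. The ratio of CPM was 13.3 (95% interval 7.06 to 27.1), from 0.657 to 8.71 CPM. Its ratio of CPM was the largest of the tested members in these cells, at a level of under 1 UMI a cell. Genes were tested from 50 UMIs in the sums, and the 12 control UMIs of *Ndufa4l2* alone are below that. It was thus tested only because of its UMIs in the *Brca1* vKO library, where it was higher. Its call and its rank among the tested members therefore rest in part on that limit. The pericyte list, without *Ndufa4l2*, summed to 1.97 and 4.21 CPM in Gfra1-type germ cells, with 5 of its 6 genes seen in each library and *Higd1b* at 0, and *Cox4i2* had 9 and 2 UMIs. Sertoli cells had 5 and 10 UMIs of *Ndufa4l2* in 5 of 2041 and 9 of 4157 cells, at a lower median depth than the germ cells. The source of the UMIs was not tested. In the 11 Kit-type cells of *Brca1* vKO it had no UMI, with an upper bound of 7.48 CPM.

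The nuclear genes called lower in Gfra1-type germ cells of *Brca1* vKO were both of complex I. *Ndufv3*, an accessory subunit beside the NADH site (ENSMUSG00000024038, chr17:31520115-31531331, plus strand), was at 111 CPM (95% interval 106 to 116) in control and 62.0 CPM (95% interval 56.3 to 68.2) in *Brca1* vKO, a ratio of 0.559 (95% interval 0.502 to 0.621). The assembly factor *Ndufaf1* was at 24.6 and 12.8 CPM, a ratio of 0.518 (95% interval 0.408 to 0.653). It passed the limit narrowly and did not pass it with a limit of 5% mt- UMIs, without the correction for the library or with each cell weighted equally. *Atp5g1*, for the proton-carrying ring of ATP synthase, was at 585 and 433 CPM and *Ndufa11* at 439 and 327 CPM, both inside the limit. Over the 86 tested nuclear genes the median log2 ratio was 0.02, beside -0.02 over all genes, and 51 were above and 35 below 0. None of the 72 other genes of the pathway was called.

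In Kit-type germ cells 1 of 85 nuclear genes was called higher in *Brca1* vKO and 3 lower, beside 7.08% and 9.79% of all 10721 genes. Without the correction for the library 2 were called higher and 6 lower, beside 10.2% and 17.7% of all genes, on 4 *Brca1* vKO cells. The 11 *Brca1* vKO cells also differed in germ cell markers, with the Gfra1-type list at 21.4 and 401 CPM and the Kit-type list at 942 and 572 CPM. In control Gfra1-type cells the Gfra1-type list was at 465 CPM, so these cells were close to that level. The handling stress list was at 182 and 572 CPM, the retained nuclear RNAs at 995 and 1689 CPM and the haemoglobin list at 325 and 42.6 CPM. Sertoli markers were at 43.7 and 105 CPM, myoid markers at 20.4 and 44.6 CPM and stromal markers at 77.75 and 87.2 CPM. Neutrophil markers were at 5.72 and 12.2 CPM. Leydig, macrophage, endothelial and pericyte markers were lower in *Brca1* vKO, at no more than 7.66 CPM in either library. The part of these values in the differences was not tested. *Cox6b2* was again the gene called higher, at 26.0 and 71.0 CPM, a ratio of 2.73 (95% interval 1.86 to 3.92). *Ndufa11* was at 526 and 276 CPM, a ratio of 0.524 (95% interval 0.439 to 0.622). The assembly factors *Ndufaf4*, at 66.4 and 32.4 CPM, and *Ndufaf5*, at 18.5 and 4.05 CPM, were called lower on 16 and 2 UMIs in *Brca1* vKO. With germ cells taken by marker UMIs the log2 ratio of *Ndufa11* was -0.44 and inside the limit. Of the other genes of the pathway 2 were called higher and 5 lower among 70 tested. Higher were the ADP/ATP carrier *Slc25a5*, at 28.7 and 73.0 CPM, and the copper chaperone *Cox17*, at 85.5 and 138 CPM. Lower were *Cycs*, at 197 and 114 CPM, the mitochondrial RNA polymerase *Polrmt*, and *Atpaf1*, *Tfb1m* and *Esrra*. *Polrmt*, *Tfb1m* and *Esrra* had 3, 1 and 1 UMIs in *Brca1* vKO, and the intervals of the ratio hold 1 for *Polrmt*, at 0.406 (95% interval 0.0827 to 1.21), and for *Esrra*, at 0.211 (95% interval 0.00528 to 1.21).

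No nuclear gene was called between the libraries in Sertoli, stromal, myoid or Leydig cells. In Leydig cells the assembly factor *Ndufaf7*, at 20.2 and 31.8 CPM, was called higher without a limit on mt- UMIs, with the limit at 5%, with each cell weighted equally and with a pseudocount of 1 CPM. The comparison covered 86 nuclear genes in Sertoli, 85 in stromal, 84 in myoid and 81 in Leydig cells. Over all genes 0.129% were higher and 0.129% lower in Sertoli, 0.185% and 0.126% in stromal, 0.393% and 0.172% in myoid and 3.96% and 3.25% in Leydig cells. In Sertoli cells 67 of 86 nuclear genes (77.9%) were below 0, beside 50.7% of all genes. Their median log2 ratio was -0.06, beside 0.00 over all genes. In myoid cells 70 of 84 (83.3%) were below 0, beside 53.9%, with medians of -0.08 and -0.01. Leydig cells had 58 of 81 (71.6%), beside 47.1%, with -0.09 and 0.02. Stromal cells had 48 of 85 (56.5%), close to the 52.9% of all genes, with medians of -0.01 and -0.01. Of the 86 tested nuclear genes *Ndufa4* had the largest ratio in Sertoli cells, at 501 and 668 CPM, a ratio of 1.33 (95% interval 1.32 to 1.35). It was at 454 and 539 CPM in Gfra1-type germ cells and 412 and 403 CPM in myoid cells. *Ndufb6* was at 85.2 and 69.9 CPM in Sertoli cells. Of the other genes of the pathway none was called in Sertoli, stromal or myoid cells, and 3 of 57 were higher in Leydig cells, *Acad9* at 11.9 and 23.4 CPM, *Cox11* at 13.8 and 25.8 CPM and *Cox19* at 25.7 and 43.9 CPM.

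**Figure D4:**
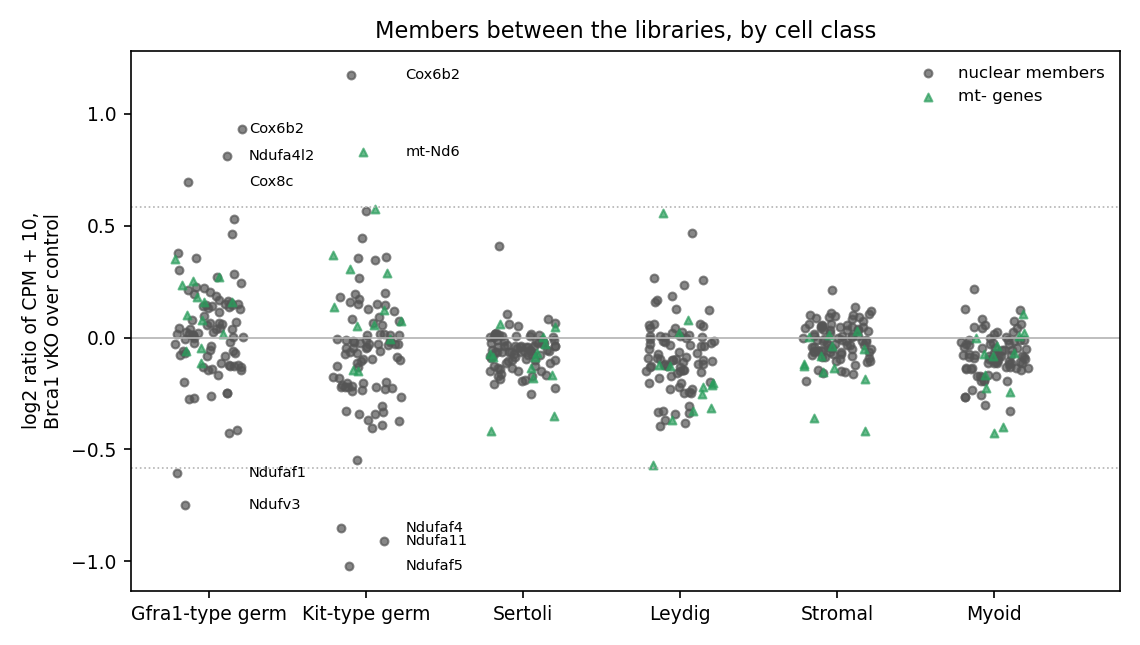
log2 ratio of CPM + 10 between the Brca1 vKO and control libraries for every tested member in each cell class, with nuclear members as circles and mt- genes as triangles, and lines at the 1.5-fold limit. Cox6b2 and Ndufa4l2 lie above the limit in Gfra1-type germ cells, while no nuclear member of the Sertoli, stromal, myoid or Leydig classes passes it.

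The mt- genes differed between the libraries by unequal factors. In Sertoli cells *mt-Cytb*, the only complex III gene of the mitochondrial genome, was at 4053 and 3173 CPM, a ratio of 0.783 (95% interval 0.779 to 0.787). *mt-Nd2* was at 1841 and 1376 CPM, a ratio of 0.747 (95% interval 0.741 to 0.754). The complex IV genes *mt-Co1*, with 0.980, and *mt-Co2*, with 1.0, stayed close to 1, as did *mt-Nd5*, with 1.03. In stromal, myoid and Leydig cells *mt-Cytb* was at 0.777, 0.757 and 0.673 and *mt-Nd2* at 0.747, 0.742 and 0.795. In Leydig cells *mt-Co1* was at 0.859 and *mt-Nd4* at 0.774, and *mt-Nd4* was at 0.941 in Sertoli, 0.897 in stromal and 0.890 in myoid cells. The somatic classes share their library, so they are not replicates of this pattern.

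As a share of mt- UMIs, *mt-Cytb* went from 8.15% to 6.77% in Sertoli cells and from 9.03% to 7.16% in Leydig cells. In Gfra1-type germ cells it went from 6.6% to 6.10%, and in Kit-type germ cells from 7.70% to 6.18%. The share was lower in *Brca1* vKO in each of these classes. By CPM the germ cells differed from the somatic classes in *mt-Nd3* of complex I, at 1373 and 1756 CPM in Gfra1-type and 1448 and 2159 CPM in Kit-type cells. The ratios were 1.28 (95% interval 1.25 to 1.31) and 1.49 (95% interval 1.40 to 1.59). In Sertoli cells its ratio was 1.04 and in stromal cells 0.943. *mt-Nd1* had ratios of CPM of 1.12 and 1.29 in the germ cell types and 0.911 in Sertoli cells. As a share of mt- UMIs, *mt-Nd3* had ratios of 1.22 in Gfra1-type and 1.33 in Kit-type germ cells. The ratios of that share were 1.11 in Sertoli, 1.08 in Leydig, 1.02 in myoid and 0.995 in stromal cells, so a higher share was not confined to germ cells. These differences between classes were not tested.

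*mt-Nd6*, the one gene of the 13 read from the light strand, was the mt- gene called higher in Kit-type germ cells of *Brca1* vKO. It was at 45.8 and 89.2 CPM there, on 401 and 44 UMIs, a ratio of 1.95 (95% interval 1.39 to 2.66). In Gfra1-type germ cells it was at 57.8 and 71.7 CPM, in Sertoli cells at 101 and 88.1 CPM and in Leydig cells at 66.2 and 102 CPM. With germ cells taken by marker UMIs the log2 ratio in Kit-type cells was -0.05, on the other side of 0, and without the correction for the library it was 0.02. *mt-Atp8* overlaps *mt-Atp6* and *mt-Nd4l* overlaps *mt-Nd4* on the same strand, so reads in a shared stretch cannot be given to one of them.

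**Figure D5:**
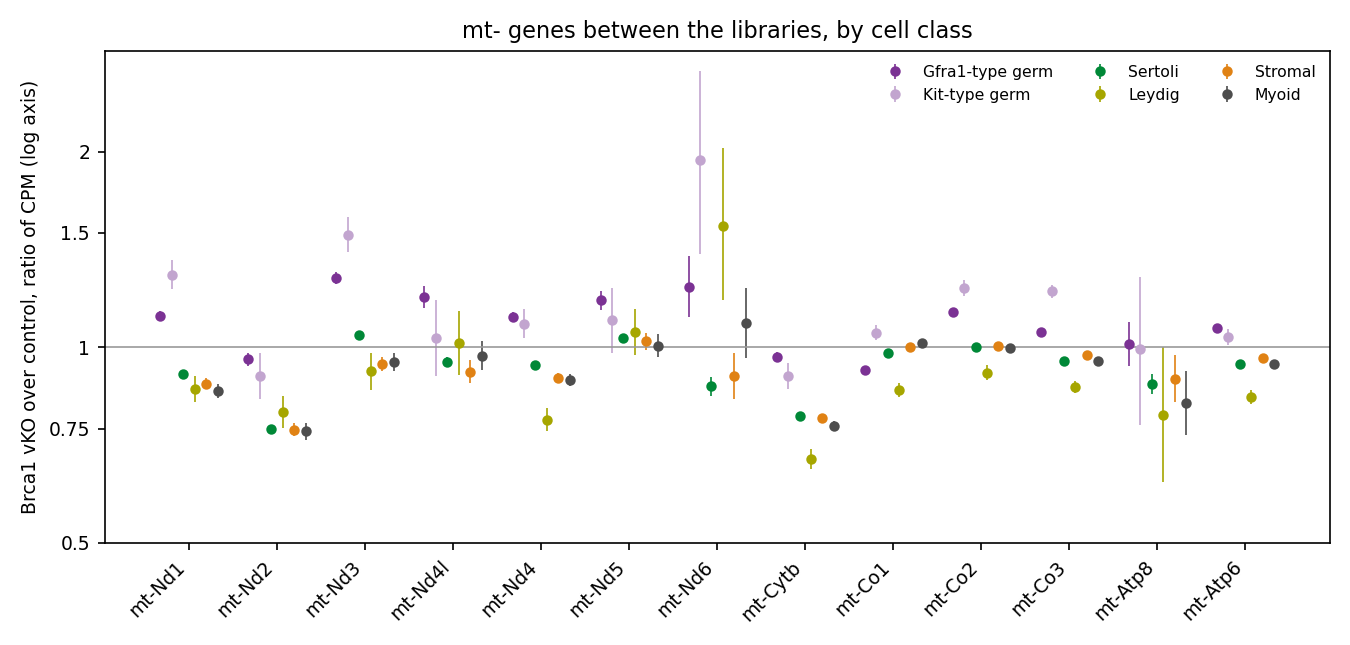
Ratio of CPM between the Brca1 vKO and control libraries on a log axis for each of the 13 mt- genes, by cell class, with exact 95% intervals for counting error. mt-Nd2 and mt-Cytb lie lowest in the Sertoli, stromal and myoid cells, at 0.783 for mt-Cytb in Sertoli cells, while most mt- genes of the germ cell types lie above 1.

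The germ cell barcodes with few UMIs had the parts in another proportion. Their median was 3231 and 3542 UMIs, and the nuclear part was 3.20% and 3.28% and the mitochondrial part 1.49% and 2.42%, which gave 0.466 and 0.737 mt- UMIs per nuclear UMI. Against Gfra1-type germ cells the nuclear part was 1.46 and 1.48 times as large and the mitochondrial part 0.260 and 0.403 times. Between the libraries the mitochondrial part was 1.62 (95% interval 1.58 to 1.66) times as large in *Brca1* vKO. The haemoglobin list was at 8307 and 139.7 CPM in these barcodes and the retained nuclear RNAs at 307 and 689 CPM. The Gfra1-type list was at 59.6 and 292 CPM, the Kit-type list at 663 and 244 CPM and the handling stress list at 229 and 539 CPM. The barcodes thus differed between the libraries in germ cell markers as well, and the part of these values in the mt- share was not tested.

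Within a class, the share of nuclear members and the share of mt- genes of single cells were weakly related after thinning each cell to 5000 UMIs. Spearman's rho across cells was 0.11 and 0.06 in Gfra1-type germ cells, over 392 and 178 cells, and -0.02 over the 173 Kit-type cells of the control library. It was 0.11 and 0.08 in Sertoli, 0.22 and 0.12 in stromal and 0.20 and 0.24 in myoid cells. Leydig cells stood apart, with 0.58 and 0.53 over 45 and 112 cells. Both shares were also related to depth. In Sertoli cells rho with depth was -0.31 and -0.35 for the mt- share and -0.27 and -0.42 for the nuclear share. In Gfra1-type germ cells it was -0.29 and -0.24, and -0.19 and -0.18. Leydig cells had 0.16 and 0.07, and -0.02 and -0.10. The cells of a library share its preparation, and both shares have the same total as denominator, so these values are a description.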

How the data were processed

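Per the labels and the study's methods, testes were dissociated with collagenase IV and TrypLE and libraries were made on the 10x Chromium platform. The submitters' processing notes name Cell Ranger 6.0.2 and mm10, R 4.2.3 and Seurat 4.3.0.1. The deposited files hold raw UMI counts for each gene and barcode, which the authors made by mapping and filtering of barcodes. Reads that map to several places are not counted, which can lower genes with processed pseudogenes.

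Cells with at least 750 genes and at most 10% mt- UMIs were kept. The 2000 most variable genes, without the 102 genes studied, gave 20 principal components, a reimplemented Harmony correction for the library and Louvain clusters at a resolution of 0.25, and 0.2 for germ cells (R 4.3.3, Seurat 5.3.0, Python 3.11.15, scanpy 1.11.5, scipy 1.17.1). Doublets were marked with Scrublet and kept. UMIs were summed for each class and library. Log2 ratios used a pseudocount of 10 CPM and genes with at least 50 UMIs in the sums. A limit of 1.5-fold defined a call, in both libraries for contrasts between classes. The scripts were tested on simulated data. 15 alternatives were tried.

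Genes were named by rule: all mt- genes, the isoforms and their partners, the 3 largest and 3 smallest log2 ratios of each comparison, the 3 genes with most UMIs under each of the Nduf, Uqcr, Cox and Atp5 symbols, and other pathway genes past the limit. Some further genes past the limit were named after their values were seen. The genes and lists were chosen with earlier results of these data known.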

Additional observations from a re-analysis of the deposited data

Results flagged for a closer look

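*Cox6b2* was higher in *Brca1* vKO in germ cells and lower in a somatic class. Its ratio was 2.52 in Gfra1-type germ cells against 0.773 in myoid cells, so the ratios differed 3.26-fold. In Kit-type germ cells it was 2.73 against the same 0.773, a 3.54-fold difference that rests on 11 *Brca1* vKO cells. *mt-Nd6* had a ratio of 1.95 in Kit-type germ cells and 0.871 in Sertoli cells, a 2.23-fold difference. For *mt-Nd6* the log2 ratio in Kit-type germ cells was 0.83, but 0.02 without the correction for the library and -0.05 with germ cells from marker UMIs, so the opposite direction was lost under the latter. In the data as reported the direction was opposite in the classes named, each with 1 library for each genotype, and the difference was not tested.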

How the results depend on the processing

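No paired analysis was possible because each genotype had 1 library, and no replicate could be left out. Of 332 ratios of the parts under the alternatives, 319 stayed on the same side of 1 and 13 did not, and of 835 values of named genes 834 stayed on the same side of no difference. A limit of 5% mt- UMIs left no Kit-type cluster, so it gives no value there.

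The *Brca1* vKO over control ratio of the nuclear part in Gfra1-type germ cells, 1.01, was 0.958 with a limit of 5%, 0.988 with each cell weighted equally and 1.0 with germ cells from marker UMIs. In Sertoli cells, 0.967 became 0.975 without the limit, 0.990 at 5%, 0.983 with equal weights, 0.962 in cells with at least 10000 UMIs and 0.964 over UMIs not of mt- genes. The mitochondrial ratio in Gfra1-type germ cells, 1.05, was 1.05 without the limit, 1.04 at 5%, 1.03 with equal weights and 1.04 with marker UMIs. In Sertoli cells, 0.942 became 0.911 without the limit, 1.01 at 5%, 0.944 with equal weights, 0.937 in cells with at least 10000 UMIs and 0.940 without doublets.

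For Gfra1-type germ over Sertoli cells in control, the nuclear ratio of 1.14 was 1.15 without the limit, 1.21 at 5%, 1.09 with equal weights, 1.13 with the 102 genes kept for clustering, 1.14 without library correction, 1.13 with marker UMIs, 1.09 without clusters led by cell cycle genes and 1.15 over UMIs not of mt- genes. The mitochondrial ratio of 1.15 was 1.12, 1.04 and 1.12 under the first 3 of these, 1.15 without doublets, 1.16 with the 102 genes kept, 1.12 with marker UMIs and 1.11 without cell cycle clusters.

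With 2-fold as the limit, 0 of 86 tested nuclear genes were higher and 0 lower between the libraries in Gfra1-type germ cells. Against Sertoli cells 8 of 86 were higher and 0 lower. The share of all genes past 2-fold is not set beside these counts, so they are not read as a departure from it. At 1.5-fold 2 of 86 were called lower between the libraries in Gfra1-type germ cells, beside 3.16% of all genes. Of these *Ndufaf1* was inside the limit at 5%, without library correction and with equal weights. The log2 ratio of mt-Nd6, vKO over control, Kit-type germ cells, was 0.83, and -0.054 with marker UMIs. The cause was not tested for these shifts. Depth limits the *Brca1* vKO values of Kit-type germ cells, with 493222 UMIs in 11 cells, and of the germ cell barcodes with few UMIs, with 307831 UMIs in 51.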

Other observations

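A cluster with Sertoli genes and few UMIs per barcode had a nuclear part of 3.24% and 3.13% and a mitochondrial part of 2.56% and 2.95%, with 0.791 and 0.944 mt- UMIs per nuclear UMI. Both clusters of barcodes with few UMIs, of germ and of Sertoli cells, thus held fewer mt- than nuclear UMIs of these genes in both libraries. In this Sertoli cluster the mitochondrial part was 1.15 (95% interval 1.14 to 1.17) times as large in *Brca1* vKO as in control. The haemoglobin list was at 13021 and 6373 CPM there, and its part in the ratio was not tested.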
